A study of Mus musculus with 17 samples.

Results

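Colon tumors of mice that lacked the Janus kinase Tyk2 in every cell (Tyk2KO, 3 libraries) were compared directly with tumors of mice that lacked it in the intestinal epithelium only (Tyk2DIEC, 4 libraries). These are 7 of the 17 libraries of the series, chosen by the genotype in the sample labels, and they were normalized together. By genotype the tumor epithelium carries the Tyk2 deletion in both groups, whereas stromal and immune cells carry it in Tyk2KO only. The question was therefore which transcripts differ when the cells around the epithelium lose Tyk2 as well. All mice received azoxymethane, a mutagen, and dextran sulfate sodium (AOM/DSS), which inflames the colon. The Tyk2KO allele arose from a floxed allele that a CMV-cre deleter strain had recombined in the germline, and its controls were wild-type littermates (Tyk2wt, 3 libraries). Tyk2DIEC mice carried homozygous floxed Tyk2 with Villin-cre, a transgene driven by an epithelial promoter, and their controls were cre-negative mice with the intact floxed gene (Tyk2fl, 7 libraries). Villin-cre was present in Tyk2DIEC only. Genotype and breeding line therefore cannot be told apart in the direct comparison, and the difference between both control groups is given beside it. The labels speak of single dissected tumors and a legend of the study of pooled ones, and neither ties a library to an animal. Ages are not given in the sources used here. All p-values thus measure the spread between these libraries, which may be technical.

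Tyk2 sits on the receptors for type I and type III interferons and for interleukins 10, 12, 22 and 23, where it works with a partner kinase to phosphorylate Stat transcription factors. Type I interferon acts through Stat2 and Irf9 on interferon-stimulated response elements. Interferon gamma signals through Jak1 and Jak2 to gamma-activated sequences and induces GTPases against intracellular pathogens, chemokines for T cells and antigen presentation. Interleukin 12 drives T and NK cells to make interferon gamma, so that Tyk2 in immune cells also acts ahead of that pathway.

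Of 16295 genes that passed the low-count filter, 130 were lower in Tyk2KO than in Tyk2DIEC tumors (0.798% of the genes tested) and 17 were higher (0.104%). A gene is called where edgeR's quasi-likelihood F test gave a Benjamini-Hochberg adjusted p under 0.05 and the change exceeded 2-fold. Log2 fold changes are Tyk2KO minus Tyk2DIEC throughout, and levels are CPM, read counts scaled to library size with the trimmed mean of M values. In each of the 130 lower genes all Tyk2KO libraries lay below all Tyk2DIEC libraries, an order that 1955 of all genes tested showed, while 22.2% of them did not overlap in either direction. Of the 130 lower genes, 77 (59.2%) belong to 6 lists of interferon response and antigen presentation genes. These lists held 133 tested genes with a median log2 fold change of -1.24, beside a median of -0.0044 over all genes tested, and none of their members was called higher. Both the lists and the genes looked at were drawn up with earlier results of these data known, so their shares are descriptions and not independent evidence.

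Start-site sequences of 6 of the lower genes are shown because they hold, or in 1 case lack, the response elements through which interferons are known to act. Each stretch is the 250 bases before the gene's start in RefSeq (GRCm38.p6), 5′ to 3′ on the gene's strand, and the genes were chosen after their values had been seen. Capitals mark matches to GAAA, any 2 bases and again GAAA, the core of the interferon-stimulated response element (ISRE below), or to TTCNNNGAA, the gamma-activated sequence, both searched on either strand. In Tgtp1 the first capitals are the gamma-activated sequence and the second the response element, in Irgm1 and Isg15 overlapping matches to the response element run together, and the Cxcl9 window holds no match.
Tgtp1 (chr11:48992247-48992496, minus strand): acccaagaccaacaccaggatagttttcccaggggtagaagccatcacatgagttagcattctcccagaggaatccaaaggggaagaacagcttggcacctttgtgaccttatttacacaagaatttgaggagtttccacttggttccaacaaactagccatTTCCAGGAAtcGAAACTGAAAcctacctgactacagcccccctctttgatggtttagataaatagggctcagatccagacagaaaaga
Irgm1 (chr11:48871421-48871670, minus strand): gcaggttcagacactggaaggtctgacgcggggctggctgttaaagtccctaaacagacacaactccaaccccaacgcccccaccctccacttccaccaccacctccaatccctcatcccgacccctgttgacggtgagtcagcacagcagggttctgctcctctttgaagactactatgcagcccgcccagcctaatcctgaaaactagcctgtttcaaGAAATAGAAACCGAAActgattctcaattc
Oas3 (chr5:120777660-120777909, minus strand): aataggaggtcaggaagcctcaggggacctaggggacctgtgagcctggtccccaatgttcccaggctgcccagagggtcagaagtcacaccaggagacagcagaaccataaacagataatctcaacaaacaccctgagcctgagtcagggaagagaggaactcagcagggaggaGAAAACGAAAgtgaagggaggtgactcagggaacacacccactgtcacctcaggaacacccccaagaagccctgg
Isg15 (chr4:156200819-156201068, minus strand): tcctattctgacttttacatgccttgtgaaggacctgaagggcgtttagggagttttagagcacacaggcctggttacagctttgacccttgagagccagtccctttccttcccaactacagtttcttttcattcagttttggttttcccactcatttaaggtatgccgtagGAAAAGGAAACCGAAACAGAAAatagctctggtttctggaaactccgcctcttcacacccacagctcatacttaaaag
B2m (chr2:122147437-122147686, plus strand): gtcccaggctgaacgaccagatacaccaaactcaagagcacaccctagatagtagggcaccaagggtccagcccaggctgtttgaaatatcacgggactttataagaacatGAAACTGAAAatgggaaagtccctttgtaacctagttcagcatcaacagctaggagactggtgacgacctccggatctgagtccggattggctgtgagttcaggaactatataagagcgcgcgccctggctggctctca
Cxcl9 (chr5:92328080-92328329, minus strand): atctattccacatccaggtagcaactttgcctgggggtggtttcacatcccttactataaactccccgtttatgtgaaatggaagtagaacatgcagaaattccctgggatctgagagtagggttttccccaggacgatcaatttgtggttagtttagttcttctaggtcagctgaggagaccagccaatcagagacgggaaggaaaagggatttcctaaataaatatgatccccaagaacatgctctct

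Of all 32851 RefSeq start windows, 978 (2.98%) held the ISRE letters and 2306 (7.02%) held TTCNNNGAA. A window could be matched by symbol to 85 of the 130 genes that were lower in Tyk2KO, and 31 of these 85 (36.5%) held the ISRE letters, compared with 349 of 11626 genes that were not called (3.002%). TTCNNNGAA was found in 15 of the 85 (17.6%) and in 833 of the 11626 (7.16%). Among the interferon-stimulated genes that were lower, 15 of 22 with a window (68.2%) held the ISRE letters, beside 2 of 13 members that were not called. Among the interferon gamma-induced GTPases 8 of 9 called members held them (88.9%), as did the 1 member with a window that was not called. The share was lower for the called effectors and chemokines, at 2 of 9 (22.2%, beside 2 of 7 of the list's members that were not called). For MHC class I it was 2 of 10 called genes and 1 of 10 not called. The 1 MHC class II gene and the 1 regulatory factor that were called and had a window held no match. None of the 6 matched genes that were higher in Tyk2KO held the ISRE letters. These are counts of letters within a fixed window, and a match is not a measured binding site.

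Counts on genes totalled 19922606 to 21707373 per Tyk2KO library and 19129696 to 20334948 per Tyk2DIEC library, so depth was alike in both groups. The first principal component separated them, with Tyk2KO libraries at 14.7 to 23.8 and Tyk2DIEC libraries at -23.5 to -1.88, and held 43.6% of the variance among the 500 most variable genes. The second component (30.2%) set Tyk2DIEC replicate 1 at 29.8, apart from the other libraries at -16.7 to 7.06. That library also held most smooth muscle RNA: the summed level of 14 smooth muscle markers was 1670.1, 312, 313 and 261 CPM in the Tyk2DIEC replicates in order, and 209.7 to 294 CPM in Tyk2KO. Without immunoglobulin and other technical gene classes it lay at 13.2 on the second component, within the range of the other libraries (up to 14.3). In that setting it stood apart on the first component, at -23.8 beside -12.5 to -4.00 for the other Tyk2DIEC libraries. Results were also computed without this library. In bulk tumors, fewer cells of a type and less RNA per cell cannot be told apart.

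**Figure D1:**
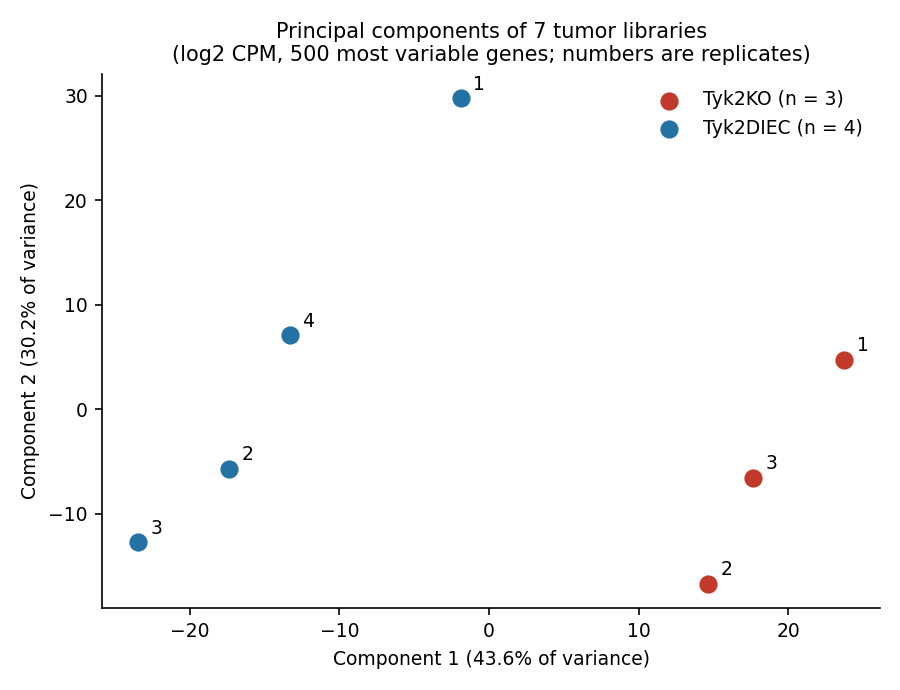
First and second principal component (arbitrary units of centred log2 CPM) of the 3 Tyk2KO and 4 Tyk2DIEC libraries, 1 point per library with its replicate number. The Tyk2KO libraries lie at 14.7 to 23.8 on the first component and the Tyk2DIEC libraries at -23.5 to -1.88, and Tyk2DIEC replicate 1 stands at 29.8 on the second.

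Tyk2 itself (chr9:21104068-21131243 on GRCm38, minus strand) was at 58.4, 58.7 and 59.7 CPM in Tyk2KO replicates 1 to 3 and at 54.0, 56.6, 53.9 and 52.4 CPM in Tyk2DIEC replicates 1 to 4. It was at 55.5 to 57.7 CPM in Tyk2wt and 42.5 to 54.2 CPM in Tyk2fl libraries on the scale of all 17. The direct difference did not pass the test (0.12, SE 0.05, adjusted p = 0.177). The deletion removes exon 3 with the start codon and leaves a transcript that is still counted, so values per gene do not check the genotype. In the study, reads over exon 3 were missing from Tyk2KO tumors and from most, not all, Tyk2DIEC tumors. By qPCR of that exon the study found no Tyk2 in Tyk2KO and strongly reduced Tyk2 in Tyk2DIEC tumors.

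Few transcripts of the ligands were measurable. Of 19 genes for interferons and Tyk2-dependent cytokines only 5 passed the filter, 7 had no read in any of the 7 libraries, and none of the 5 was called (median -0.12). Ifng, the gene for interferon gamma, had 0, 0 and 1 reads in the Tyk2KO and 0, 3, 7 and 4 reads in the Tyk2DIEC libraries. Il12b, which encodes the shared subunit of interleukins 12 and 23, had 1, 5 and 10 and 5, 3, 3 and 0 reads. At this depth a difference in these cytokines was not detectable. Il18, a partner of interleukin 12, was at 63.6, 58.9 and 64.7 CPM in Tyk2KO and 47.5, 45.7, 38.6 and 58.6 CPM in Tyk2DIEC, and the gap did not pass the test (0.39, SE 0.12, adjusted p = 0.102). The highest Tyk2DIEC value lay just under the lowest Tyk2KO value.

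The receptor genes differed little. None of 16 tested genes for receptor chains of interferons and other Tyk2-coupled cytokines was called, with a median of -0.03 and a range from -0.76 to 0.26. Ifnar1, a chain of the type I receptor on which Tyk2 docks, was at 98.4, 101 and 97.4 CPM in Tyk2KO and 85.9, 104, 101 and 98.7 CPM in Tyk2DIEC (0.03, SE 0.07, adjusted p = 0.846). Ifngr1, the ligand-binding chain of the interferon gamma receptor, was at 162, 167 and 167 and 151, 135, 125 and 163 CPM (0.21, SE 0.09, adjusted p = 0.201). Its partner Ifngr2 was at 283, 265 and 263 CPM in Tyk2KO and 212, 228, 226 and 241 CPM in Tyk2DIEC, without overlap. Ifngr2 passed the adjusted p at a change far under 2-fold (0.26, SE 0.06, adjusted p = 0.0498), as 1.09% of all genes did in that direction.

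Of 18 genes for Janus kinases, Stat factors and their feedback inhibitors 2 were lower in Tyk2KO, with a median of -0.09. Stat2 passed the adjusted p, as 3.07% of all genes did in this direction, but was under 2-fold lower, with 36.5, 38.0 and 41.6 CPM against 74.3, 65.3, 60.2 and 63.0 CPM (-0.76, SE 0.08, adjusted p = 0.00256). The Stat2 groups did not overlap. Stat3, which interleukins 6, 10 and 22 use, stood at 268, 259.6 and 261 and 239.8, 260.5, 273 and 258 CPM, and its values overlapped (0.03, SE 0.06, adjusted p = 0.812). The kinases beside Tyk2 showed no called difference either: Jak1 was at 139 to 153 and 145 to 162 CPM, and Jak2 at 103 to 109 and 107 to 136 CPM. Socs1, an inhibitor that interferon gamma induces, was at 4.09, 3.79 and 3.37 CPM in Tyk2KO and 7.71, 6.89, 10.8 and 9.46 CPM in Tyk2DIEC (-1.22, SE 0.18, adjusted p = 0.0125). Usp18, which blocks the type I receptor, was at 15.2, 16.3 and 15.5 and 53.9, 30.5, 30.6 and 34.4 CPM (-1.26, SE 0.20, adjusted p = 0.0166). Both Socs1 and Usp18 were lower in every Tyk2KO library than in any Tyk2DIEC library. Socs1 lost its call without Tyk2KO replicate 2 (adjusted p = 0.0646), and Usp18 without Tyk2KO replicate 1 (adjusted p = 0.0642) or 2 (adjusted p = 0.0753).

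Among 12 regulatory factors of the interferon response 3 were lower and a further 3 passed the adjusted p below 2-fold. Nlrc5, the transactivator of MHC class I genes, was at 5.39, 4.24 and 6.12 CPM in Tyk2KO and at 52.0, 60.7, 38.7 and 32.5 CPM in Tyk2DIEC (-3.13, SE 0.25, adjusted p = 0.000559), an 8.73-fold gap. Ciita, its counterpart for MHC class II, was at 5.81, 3.09 and 5.22 and 14.2, 17.6, 13.8 and 9.51 CPM (-1.55, SE 0.26, adjusted p = 0.0203), and its call was lost without Tyk2KO replicate 2 or Tyk2DIEC replicate 2 or 3 (adjusted p = 0.0662, 0.0548 and 0.0532). Irf7, which amplifies type I interferon, was at 34.998, 27.1 and 34.4 CPM in Tyk2KO and 78.0, 60.3, 58.6 and 92.7 CPM in Tyk2DIEC (-1.17, SE 0.17, adjusted p = 0.0113), and it lost its call without Tyk2KO replicate 2 (adjusted p = 0.0584). None of the 3 overlapped between the groups. Irf9, the DNA-binding partner of Stat2, passed the adjusted p at a smaller change, with 55.7, 55.5 and 59.6 CPM against 98.5, 94.4, 83.4 and 84.4 CPM (-0.66, SE 0.07, adjusted p = 0.00237). Irf1, an early target of interferon gamma, likewise stayed under 2-fold (-0.56, SE 0.09, adjusted p = 0.0182).

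**Figure D2:**
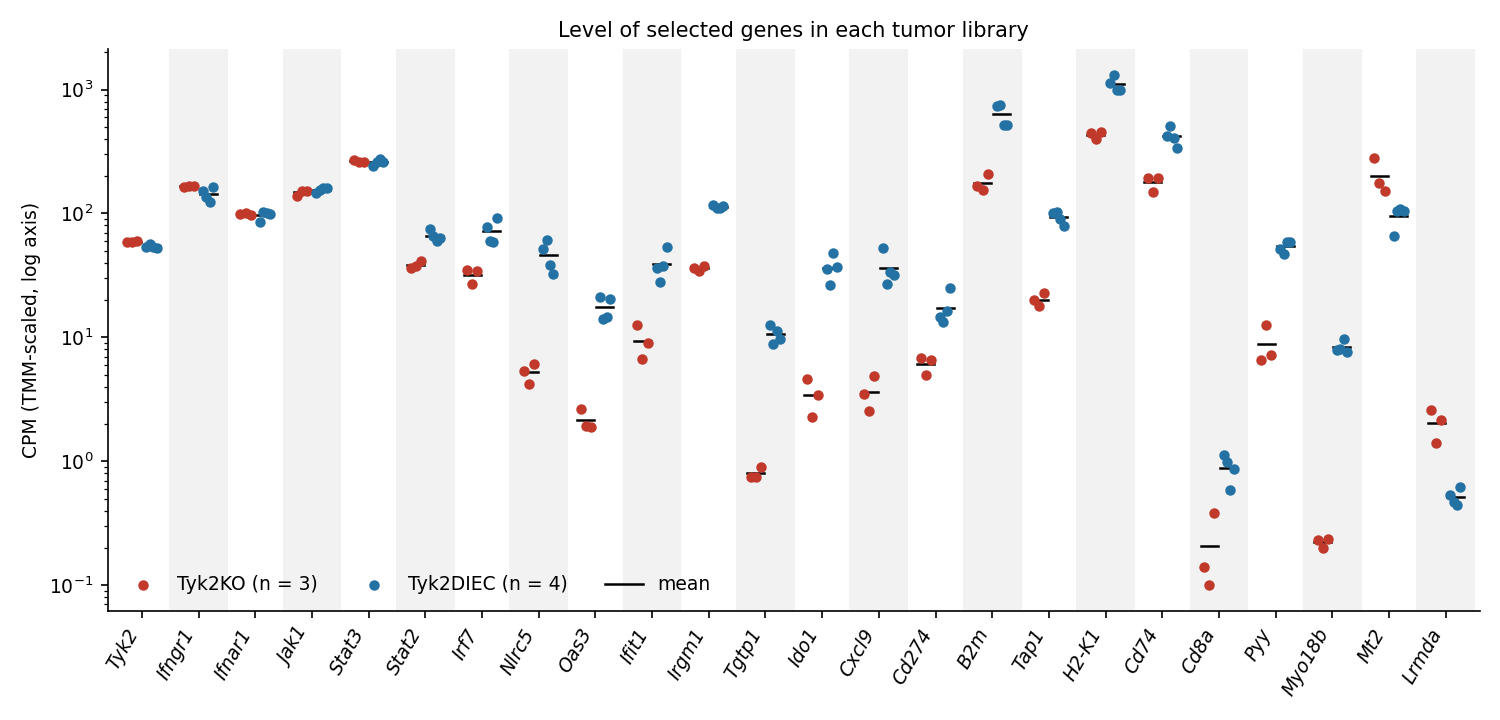
Level of 24 genes in each library (CPM, log axis), with 1 point per library for Tyk2KO (n = 3) and Tyk2DIEC (n = 4) and a bar at each mean. Tyk2, Ifnar1, Jak1 and Stat3 lie at like levels in both groups, whereas Stat2, Nlrc5, Tgtp1, Ido1 and Myo18b show no overlap, with all Tyk2KO libraries below all Tyk2DIEC libraries.

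Of 47 type I interferon-stimulated genes tested, 32 were lower in Tyk2KO and 39 passed the adjusted p, and the list's median was -1.51. Without Tyk2DIEC replicate 1 the median was -1.39. Oas3, a sensor of viral double-stranded RNA whose start window holds a response element, was at 2.65, 1.95 and 1.90 CPM in Tyk2KO and 21.1, 14.2, 14.6 and 20.2 CPM in Tyk2DIEC (-3.01, SE 0.21, adjusted p = 0.00039). Ifi44, an interferon-induced protein of the cytoplasm, was at 1.02, 1.05 and 1.42 and 12.2, 7.72, 8.78 and 8.99 CPM (-3.01, SE 0.22, adjusted p = 0.000434). Every Tyk2KO value of both genes lay several-fold below the lowest Tyk2DIEC value. Isg15, a ubiquitin-like modifier with 3 overlapping response elements in the window above, was at 7.02, 3.59 and 5.13 CPM in Tyk2KO and 23.3, 20.4, 27.3 and 37.9 CPM in Tyk2DIEC (-2.37, SE 0.27, adjusted p = 0.00348). Ifit1, which binds foreign RNA caps, was at 12.5, 6.68 and 9.07 and 36.4, 28.1, 37.9 and 53.4 CPM (-2.04, SE 0.26, adjusted p = 0.00535). Its neighbour Ifit2 was at 31.6, 18.4 and 18.9 CPM in Tyk2KO and 97.6, 75.2, 82.6 and 95.6 CPM in Tyk2DIEC (-1.93, SE 0.20, adjusted p = 0.00164). The groups of these 3 genes did not overlap. The antiviral apolipoproteins Apol9a and Apol9b, near-identical genes whose counts may be split between them, had log2 fold changes of -2.95 (SE 0.26) and -2.77 (SE 0.36). Parp14, an ADP-ribosyltransferase with 70.6, 63.3 and 68.4 CPM in Tyk2KO and 146, 133, 133 and 138 CPM in Tyk2DIEC, sat at the edge of the fold threshold (-1.03, SE 0.06, adjusted p = 0.000106) and fell under it without Tyk2KO replicate 2 or Tyk2DIEC replicate 1 (log2 fold changes -0.98 and -0.99). Not every member of the group differed. The Ifitm1, Ifitm2 and Ifitm3 genes, which restrict viral entry, had log2 fold changes of 0.03, -0.09 and -0.21 and were not called, nor was Epsti1 (-0.14).

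The interferon gamma-induced GTPases differed throughout: 15 of 17 tested were lower in Tyk2KO, none had a log2 fold change above -0.94, and the median was -2.17. Their summed level was 220.4, 170.5 and 238 CPM in the Tyk2KO libraries and 843, 748, 823 and 838 CPM in the Tyk2DIEC libraries, 2 tight groups with a wide gap. On the scale of all 17 libraries the controls summed to 756 to 1234 CPM in Tyk2wt and 256 to 638 CPM in Tyk2fl. The Tyk2fl libraries thus lay within that gap. Irgm1, a regulator of autophagy against intracellular bacteria, was at 36.3, 34.6 and 37.7 CPM in Tyk2KO and 117, 111, 112 and 116 CPM in Tyk2DIEC, and each group spanned only a few CPM (-1.65, SE 0.05, adjusted p = 4.89e-06). Tgtp1, a GTPase first found in T cells, was at 0.744, 0.748 and 0.902 and 12.7, 8.86, 11.2 and 9.71 CPM, a 13.2-fold gap (-3.72, SE 0.19, adjusted p = 6.12e-05). Its near-identical copy Tgtp2 was at 1.16, 0.549 and 1.47 and 14.3, 10.001, 10.4 and 9.04 CPM (-3.35, SE 0.31, adjusted p = 0.00101), and reads may be divided between the copies. Igtp and Ifi47, related GTPases of cell-autonomous defense, had log2 fold changes of -2.75 (SE 0.13) and -2.06 (SE 0.10). Irgm2 passed the adjusted p just under 2-fold (-0.94), and Gvin1, with 0, 0 and 5 reads in Tyk2KO and 18, 7, 11 and 10 reads in Tyk2DIEC, did not pass.

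Of 23 interferon gamma-induced effectors and chemokines 11 were lower, with a median of -1.20. Ido1, which opens the breakdown of tryptophan to kynurenine and restrains T cells, was at 4.65, 2.29 and 3.42 CPM in Tyk2KO and 35.4, 26.3, 47.6 and 37.1 CPM in Tyk2DIEC (-3.40, SE 0.27, adjusted p = 0.000559). The mean was 3.45 ± 1.18 CPM (SD, n = 3) against 36.6 ± 8.74 CPM (SD, n = 4), a 10.6-fold gap without overlap. Cxcl9, a chemokine that draws T cells through Cxcr3, was at 3.49, 2.54 and 4.84 and 53.0, 26.9, 33.9 and 31.7 CPM (-3.32, SE 0.29, adjusted p = 0.000928). Cxcl10, a ligand of the same receptor, was at 2.74, 2.64 and 3.66 CPM in Tyk2KO and 18.6, 15.7, 28.2 and 19.7 CPM in Tyk2DIEC (-2.77, SE 0.23, adjusted p = 0.000636). Both chemokines were lower in every Tyk2KO library. Cd274, the gene for the checkpoint ligand PD-L1, was at 6.88, 4.99 and 6.55 and 14.7, 13.3, 16.4 and 25.1 CPM (-1.50, SE 0.24, adjusted p = 0.0152), and its call was lost without Tyk2KO replicate 2 (adjusted p = 0.0741). Apol6, an interferon gamma-induced apolipoprotein, missed the adjusted p narrowly at 1.67, 1.55 and 1.71 CPM against 6.16, 3.83, 2.40 and 4.01 CPM (-1.32, SE 0.30, adjusted p = 0.0502). In the wider list of immune checkpoints Ido1 and Cd274 were the members lower of 11 tested, and in the kynurenine pathway Ido1 was lower among 8.

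Genes of antigen presentation on MHC class I were also lower: 14 of 26 tested genes were lower and 18 passed the adjusted p, with a median of -1.03. B2m, the light chain of every class I molecule, was at 165, 154 and 209.5 CPM in Tyk2KO and 735, 756, 520.5 and 517 CPM in Tyk2DIEC (-1.84, SE 0.18, adjusted p = 0.00133). H2-K1, a classical heavy chain, was at 447, 399.6 and 453 and 1126, 1315, 999.7 and 982 CPM (-1.35, SE 0.11, adjusted p = 0.000593). Both are among the most abundant transcripts described here, and their groups were well apart. Tap1, which pumps peptides into the endoplasmic reticulum, was at 19.9, 18.0 and 22.7 CPM in Tyk2KO and 100.3, 103, 89.6 and 79.7 CPM in Tyk2DIEC (-2.21, SE 0.11, adjusted p = 6.12e-05). The immunoproteasome subunits Psmb8 and Psmb9 had log2 fold changes of -1.73 (SE 0.11) and -1.54 (SE 0.10). The nonclassical genes H2-Q6 and H2-Q7 had the largest changes of the list, -3.65 (SE 0.38) and -3.64 (SE 0.34), but are so alike that their reads may be shared. H2-T10, also nonclassical, was lower (-1.94, SE 0.32, adjusted p = 0.0197) and lost its call in 4 of the 7 fits that each left out 1 library. The general chaperones of the secretory pathway were not called, with log2 fold changes of -0.07 for Calr, 0.01 for Canx and 0.01 for Pdia3.

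MHC class II showed smaller differences, with 3 of 9 tested genes lower, 7 past the adjusted p and a median of -0.92. Cd74, the invariant chain that guards the peptide groove, was at 193, 149.7 and 192 CPM in Tyk2KO and 421, 505, 407 and 340.1 CPM in Tyk2DIEC (-1.23, SE 0.14, adjusted p = 0.00333). H2-DMb1, part of the peptide editor, was at 6.51, 6.28 and 8.73 and 20.8, 27.9, 18.6 and 15.6 CPM (-1.53, SE 0.21, adjusted p = 0.00858), a call lost without Tyk2KO replicate 2 (adjusted p = 0.0556). H2-Ab1, a chain of the presenting molecule, passed the adjusted p just under 2-fold, at 73.9, 57.4 and 74.2 CPM against 152, 151, 126 and 109 CPM (-0.97, SE 0.14, adjusted p = 0.00941). The groups of all 3 genes were apart.

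**Figure D3:**
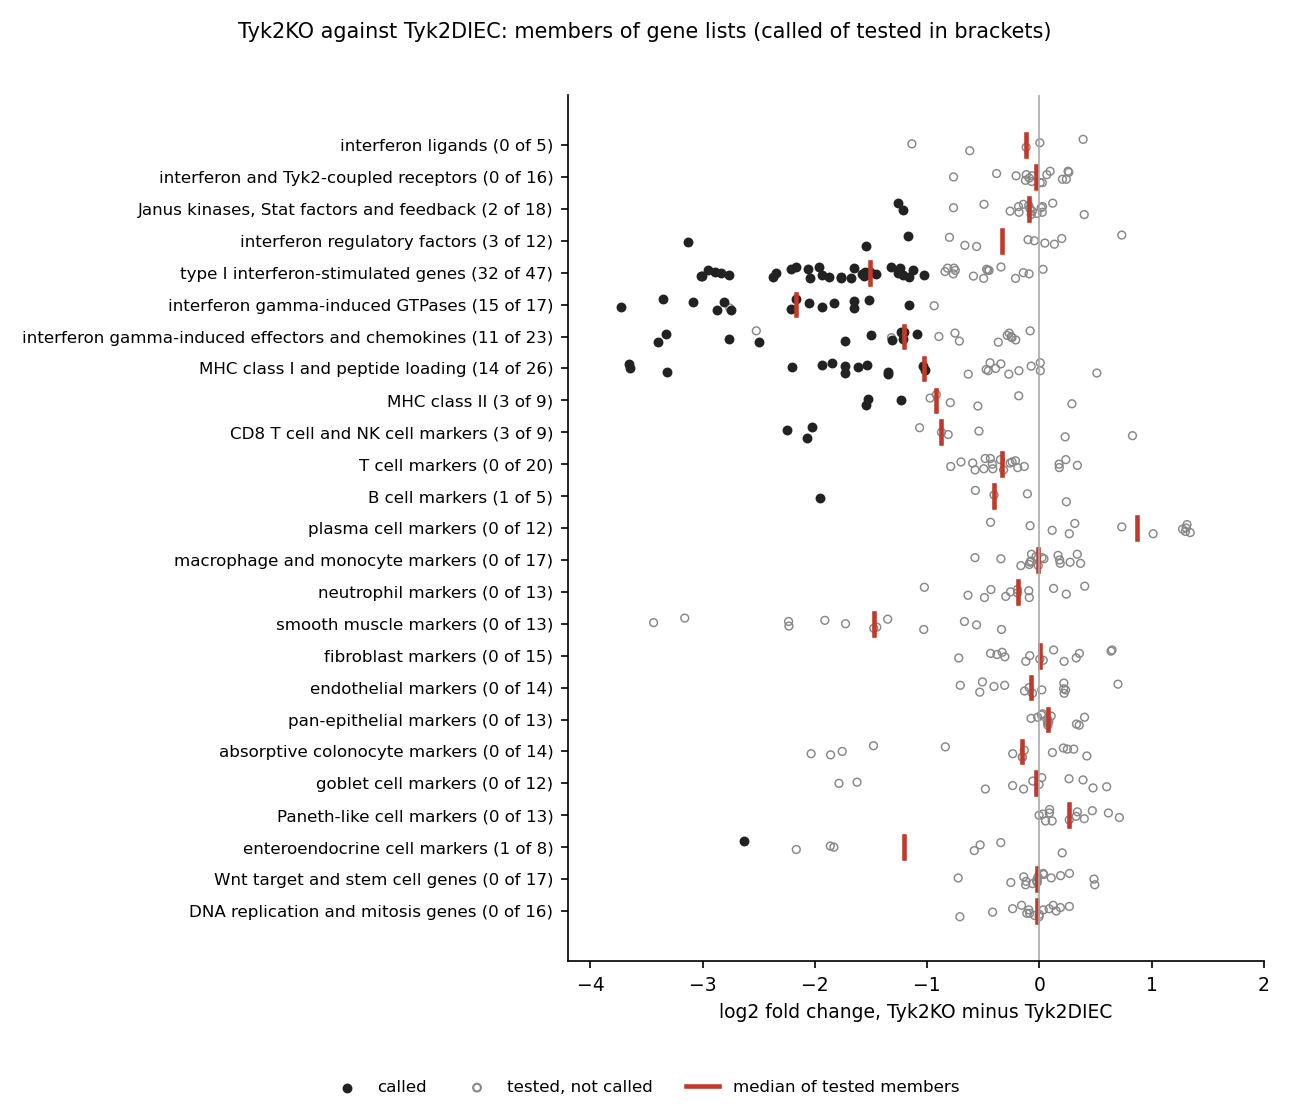
Log2 fold change (Tyk2KO minus Tyk2DIEC) of every tested member of 25 gene lists, filled where called and open where not, with a bar at the list's median. The interferon-stimulated genes (32 of 47 called), the GTPases (15 of 17) and MHC class I (14 of 26) extend to the left, whereas ligands, receptors, macrophage, fibroblast and pan-epithelial markers scatter around 0.

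Markers of the cells in the tumors were compared over the same libraries. For CD8 T cells and NK cells 3 of 9 tested markers were lower, with a median of -0.87, and the summed level of the 16 markers was 6.65, 6.03 and 6.84 CPM in Tyk2KO and 12.3, 11.5, 9.12 and 12.5 CPM in Tyk2DIEC. These sums did not overlap, yet they rest on few reads. Cd8a, a chain of the CD8 coreceptor, had 3, 2 and 8 reads in the Tyk2KO and 23, 19, 12 and 17 reads in the Tyk2DIEC libraries (-2.07, SE 0.46, adjusted p = 0.0449), and its call was lost in 6 of the 7 fits without 1 library (adjusted p up to 0.174). Nkg7, a granule protein of killer cells, had 2, 3 and 3 and 11, 14, 11 and 7 reads (-2.03, SE 0.41, adjusted p = 0.0366) and was called in 1 of the 7 fits without 1 library. Its call was lost without any one of the Tyk2KO libraries, and it no longer passed the low-count filter without Tyk2DIEC replicate 1, 2 or 3. Gzma, a granzyme, was at 0.651, 0.1496 and 0.380 CPM in Tyk2KO and 1.80, 1.81, 1.57 and 2.47 CPM in Tyk2DIEC (-2.25, SE 0.40, adjusted p = 0.0231), and its call was lost without Tyk2KO replicate 2 or 3 or Tyk2DIEC replicate 2 or 3. Gzmb was at 1.30, 1.35 and 1.42 and 1.89, 2.38, 2.50 and 2.77 CPM without overlap, and missed the adjusted p (-0.81, SE 0.20, adjusted p = 0.0576).

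None of 20 general T cell markers was called (median -0.33), and their summed level was 34.8 to 45.7 CPM in Tyk2KO and 39.0 to 62.2 CPM in Tyk2DIEC. Cd4, the coreceptor of helper T cells, was at 3.02, 2.79 and 3.56 and 5.14, 2.80, 1.86 and 1.23 CPM with full overlap (0.18, SE 0.42, adjusted p = 0.836), and Foxp3, the factor of regulatory T cells, at 0.930, 0.648 and 1.42 and 2.09, 1.30, 0.294 and 0.719 CPM (-0.13, SE 0.56, adjusted p = 0.915). Blk, a B cell kinase, was the 1 lower gene among 5 tested B cell markers (-1.96, SE 0.43, adjusted p = 0.0439) and lost its call in 6 of the 7 fits without 1 library. No marker was called among 17 tested for macrophages and monocytes (summed level 656 to 878 and 665 to 988 CPM), 13 for neutrophils, 15 for fibroblasts, 14 for endothelium or 13 for smooth muscle. Outside these lists, some genes of myeloid cells were lower. Chil3, a chitinase-like protein of macrophages and neutrophils, had 2, 5 and 8 reads in Tyk2KO and 30, 14, 53 and 81 reads in Tyk2DIEC (-3.19, SE 0.70, adjusted p = 0.0439), and lost its call without any one of the Tyk2KO libraries or Tyk2DIEC replicate 3. Ngp, a neutrophil granule protein, had a mean of 0.0158 CPM in Tyk2KO and 1.09 CPM in Tyk2DIEC (adjusted p = 0.0348), and Siglec1, a macrophage adhesion receptor, 0.591 and 1.66 CPM (adjusted p = 0.0457). Both were named after their values had been seen, and each was called in 1 of the 7 fits without 1 library. The smooth muscle median of -1.47 rested on Tyk2DIEC replicate 1 and was -0.20 without it. Whether the amount of T or NK cells moved the interferon-induced genes was not tested. Without Tyk2DIEC replicate 1 the medians of the GTPases and of MHC class I were -2.02 and -1.01, close to those with it.

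By its markers the epithelial compartment held few called genes, which at 3 libraries against 4 does not show equal levels. The 13 pan-epithelial markers summed to 12427 to 13109 CPM in Tyk2KO and 10733 to 13773 CPM in Tyk2DIEC, and none was called. The same held for the tested markers of absorptive colonocytes (14), goblet cells (12) and Paneth-like cells (13), for 17 Wnt target and stem cell genes and for 16 genes of DNA replication and mitosis, none of which was called in either direction. Of the 13 Paneth-like markers 12 lay above 0 and 1 below (median 0.27). They summed to 2590 to 2859 CPM in Tyk2KO and 1470 to 2619 CPM in Tyk2DIEC, with overlap. Of the 12 goblet cell markers 5 did not overlap between the groups, beside 22.2% of all genes tested. The squamous epithelium list had 1 lower gene among 10 tested (Krt15, described below). The enteroendocrine list had 1 lower gene among 8 tested and a summed level of 28.5, 36.2 and 34.7 CPM in Tyk2KO and 104, 64.7, 80.3 and 107 CPM in Tyk2DIEC. Pyy, the peptide YY hormone of colonic L cells, was at 6.55, 12.5 and 7.26 CPM in Tyk2KO and 51.9, 47.5, 58.5 and 59.1 CPM in Tyk2DIEC, a 6.19-fold gap (-2.63, SE 0.21, adjusted p = 0.000585). Chga, the granule protein that enteroendocrine cells share, was at 6.04, 11.3 and 11.2 and 11.8, 4.35, 7.51 and 9.30 CPM with overlap (0.20, SE 0.33, adjusted p = 0.751). The list's median of -1.20 became -0.48 without Tyk2DIEC replicate 1. In the controls, Pyy was at 16.1 to 26.1 CPM in Tyk2wt and 1.44 to 25.0 CPM in Tyk2fl, so Tyk2DIEC tumors held more than any control library.

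**Figure D4:**
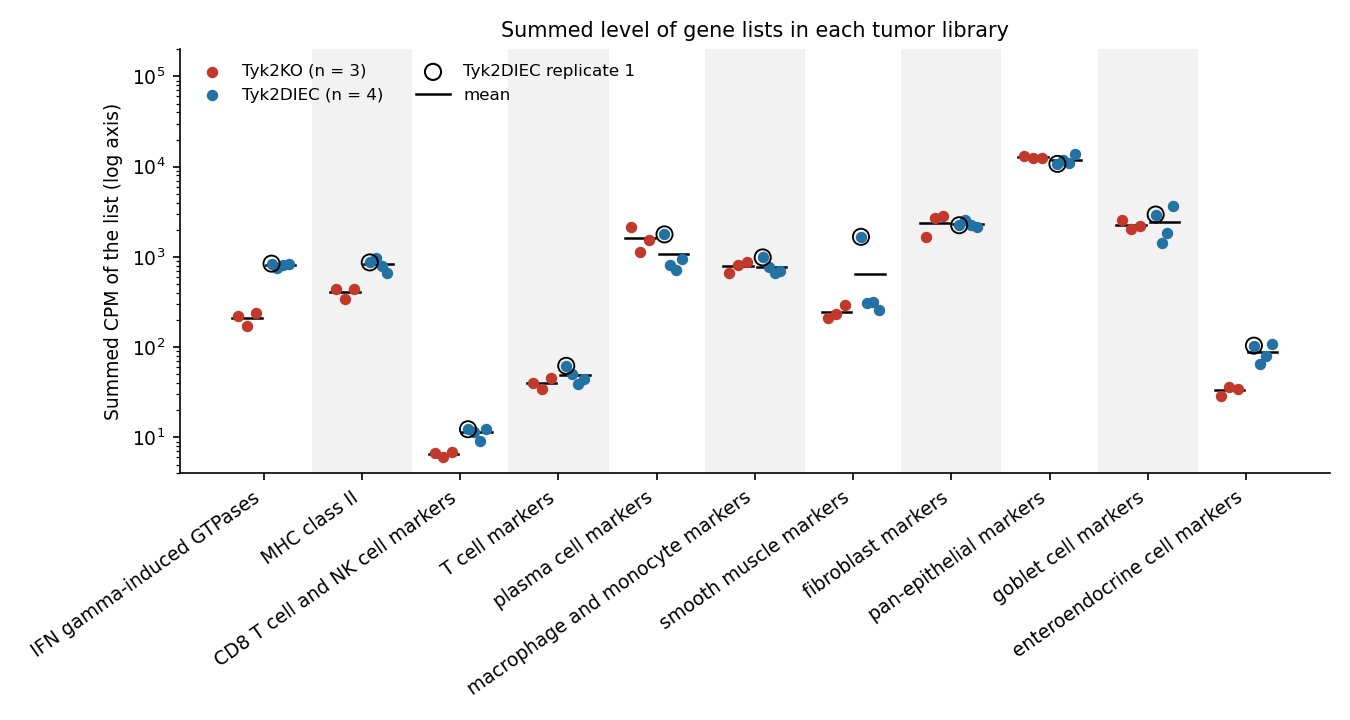
Summed level of 11 gene lists in each library (CPM, log axis), with 1 point per library, a bar at the mean of Tyk2KO (n = 3) and Tyk2DIEC (n = 4) and a ring around Tyk2DIEC replicate 1. The GTPase, MHC class II, CD8 and NK and enteroendocrine sums are apart between the groups, T cell and pan-epithelial sums overlap, plasma cell sums overlap through the ringed library, and the ringed library alone is high in smooth muscle markers at 1670.1 CPM.

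The remaining 53 lower genes lay outside the interferon and antigen presentation lists. These lists are not complete, so the 53 are not all unrelated to interferon. Among them are Ifi209 (-2.06), an interferon-activated gene by name, and Slfn2 (-1.15), a relative of the listed Slfn5 and Slfn8. Myo18b (chr5:112688876-112896362 on GRCm38, minus strand), an unconventional myosin of striated muscle, was at 0.232, 0.200 and 0.237 CPM in Tyk2KO and 7.96, 8.08, 9.71 and 7.55 CPM in Tyk2DIEC (-5.18, SE 0.21, adjusted p = 1.89e-05). It was as low in both control groups, at 0.359 to 0.481 CPM in Tyk2wt and 0.139 to 0.509 CPM in Tyk2fl libraries, so the 4 Tyk2DIEC libraries were the high ones among all 17. Against Tyk2fl its log2 fold change in Tyk2DIEC was 4.95 (SE 0.23, adjusted p = 1.52e-09). It was high in each of Tyk2DIEC replicates 1 to 4, and the smooth muscle markers were high in replicate 1. Whether the muscle content of a tumor bears on the Myo18b level was not tested. Mid1-ps1, a Y-linked pseudogene of Mid1, had no read in the Tyk2KO libraries, which allows up to 3 reads in each, and 25, 26, 25 and 22 reads in the Tyk2DIEC libraries. Mid1 itself, an X-linked ubiquitin ligase with which the copy may share reads, was at 5.21, 5.29 and 4.84 CPM in Tyk2KO and 10.1, 15.03, 13.9 and 11.9 CPM in Tyk2DIEC (-1.31, SE 0.16, adjusted p = 0.00388). Both were named after their values had been seen. Between the controls the log2 fold change of Mid1-ps1 was -0.17 (Tyk2wt minus Tyk2fl). None of the 4 tested sex-linked genes was called between the tumors (median -0.33). The sex-linked list summed to 188 to 259 CPM in Tyk2KO and 276 to 290 CPM in Tyk2DIEC. Krt15, a keratin of basal and some intestinal progenitor cells, was at 19.4, 27.8 and 24.02 CPM in Tyk2KO and 60.2, 59.6, 57.6 and 33.8 CPM in Tyk2DIEC (-1.15, SE 0.21, adjusted p = 0.0257), a call lost in 5 of the 7 fits without 1 library. C2, a complement protease, was the 1 lower gene among 14 complement components (-1.23, SE 0.16, adjusted p = 0.00622).

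Among the 17 genes higher in Tyk2KO, 10 were immunoglobulin variable segments and 7 protein-coding genes, and 3 were called in all 7 fits that each left out 1 library. These 3 were Lrmda, Ighv1-26 and Igkv4-68. Of the 17 genes 16 were tested between the controls, and 12 of these ran the same way there. Their median log2 fold change was 0.73 (Tyk2wt minus Tyk2fl), with 2 called higher in Tyk2wt and none lower. For Lrmda, Ighv1-26 and Igkv4-68 the control values were 1.06, 0.83 and 3.80. Lrmda, a gene of melanocyte differentiation, was at 2.603, 1.40 and 2.14 CPM in Tyk2KO and 0.534, 0.466, 0.442 and 0.617 CPM in Tyk2DIEC (1.98, SE 0.28, adjusted p = 0.00910). Ighv1-26, an antibody heavy chain segment, was at 9.06, 3.14 and 6.88 and 0.873, 0.207, 0.245 and 0.360 CPM (3.89, SE 0.50, adjusted p = 0.00574). Variable segments cross-map among close copies, and their counts do not identify clones. All immunoglobulin genes took 0.0495% to 0.156% of reads in Tyk2KO and 0.00359% to 0.120% in Tyk2DIEC libraries. The upper value is Tyk2DIEC replicate 1, and the other Tyk2DIEC libraries (up to 0.02004%) lay below every Tyk2KO library. None of 12 tested plasma cell markers was called (median 0.87), with sums of 1137 to 2142 CPM in Tyk2KO and 716 to 1777 CPM in Tyk2DIEC. The overlap came from Tyk2DIEC replicate 1, since the other Tyk2DIEC sums were 716 to 956 CPM. Without that library 3 of 11 tested plasma cell markers were higher in Tyk2KO, beside 47 of all 16081 genes tested, and the median was 1.22. Without any other single library no plasma cell marker was called. Between the controls 4 of 12 tested plasma cell markers were higher in Tyk2wt, with a median of 1.24. Mt2, a metal-binding metallothionein, was at 278, 176 and 151 CPM in Tyk2KO and 65.5, 106, 108 and 104 CPM in Tyk2DIEC (1.07, SE 0.23, adjusted p = 0.0421), and lost its call in 6 of the 7 fits. Ctsk, a collagen-degrading cathepsin, was the called gene whose groups overlapped, since Tyk2KO replicate 1 stood with Tyk2DIEC at 9.99, 46.7 and 46.4 CPM against 10.4, 8.29, 8.98 and 7.71 CPM (1.96, SE 0.44, adjusted p = 0.0483), and its call was lost in 6 of the 7 fits.

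Because the genotypes come from separate breeding lines, the controls were set against each other in the same way. Between Tyk2wt and Tyk2fl tumors, both with intact Tyk2, 161 of 17984 genes were higher in Tyk2wt (0.895%) and 130 were lower (0.723%). The Tyk2fl libraries also stood apart in depth (29777763 to 35427965 counts against 19789347 to 21318077 in Tyk2wt), in their share of pseudogene reads (0.235% to 0.261% against 0.203% to 0.218%) and in part in that of mitochondrial reads (2.498% to 4.88% against 2.08% to 2.56%). With the Tyk2fl counts thinned to the depth of Tyk2wt, 159 genes were higher and 110 lower, and the part of the other differences was not tested. The 2 comparisons share no library. Of the 130 genes lower in Tyk2KO than in Tyk2DIEC, 128 were tested in the controls and 49 (38.3%) were higher in Tyk2wt than in Tyk2fl, which is 30.4% of the 161, while none was lower. The control difference thus ran opposite to the tumor difference for these genes, with a median log2 fold change of 1.03 over the 128. For the interferon-stimulated genes the control median was 0.83 (15 of 47 higher in Tyk2wt), for the GTPases 1.25 (10 of 19) and for MHC class I 1.02 (13 of 26), beside -0.02 over all genes tested. Ido1 was at 28.6 to 85.2 CPM in Tyk2wt and 2.67 to 20.6 CPM in Tyk2fl, a control difference of 2.76 (SE 0.60, adjusted p = 0.0268). The control difference of Cxcl9 did not pass (1.32, SE 0.54, adjusted p = 0.159). The control counts depended on single libraries. Without Tyk2wt replicate 3 they fell to 15 higher and 22 lower genes, without Tyk2wt replicate 2 to 47 and 51, and without Tyk2wt replicate 1 to 139 and 70. In the 3 lists above at most 1 gene each was higher without Tyk2wt replicate 3 and at most 8 without replicate 2, and of the GTPases 3 were higher without replicate 1. Leaving out the Tyk2fl libraries with high Xist RNA, the inactive X transcript, gave 88 and 66 genes in all and 3 of the GTPases.

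**Figure D5:**
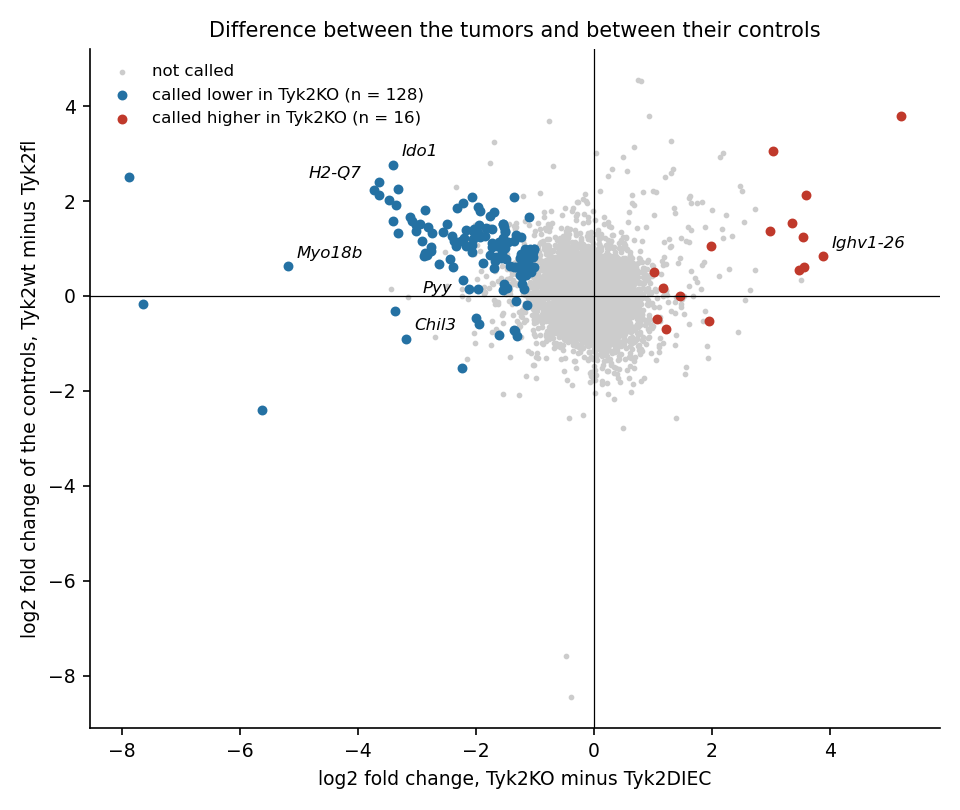
Genes tested in the tumors and in the controls, with the log2 fold change Tyk2KO minus Tyk2DIEC on the x axis and Tyk2wt minus Tyk2fl on the y axis, with called genes of the first in color. Of the 128 genes lower in Tyk2KO that were tested in the controls, 115 lie above 0 on the y axis and 13 below.

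The control difference was taken off in a fit of all 17 libraries, as the change of Tyk2KO from Tyk2wt minus the change of Tyk2DIEC from Tyk2fl. Of 17252 genes, 311 were lower (1.8%) and 140 higher (0.812%) in this contrast. Of the 130 genes lower in the direct comparison 110 were lower here too, and of the 17 higher genes 3 were higher and 14 were not called. The contrast uses the same tumor libraries as the direct comparison and does not test it anew. The Tyk2fl libraries also stood apart from Tyk2DIEC of their own line, with 29777763 to 35427965 against 19129696 to 20334948 counts. Their pseudogene share was 0.235% to 0.261%, against 0.199% to 0.213% in Tyk2DIEC. Such differences of the Tyk2fl libraries may enter the contrast beside those of the breeding line, and their part was not tested. Of 19 GTPases tested 17 were lower, with a median of -3.25, beside 0.01 over all genes tested. Of 47 interferon-stimulated genes 39 were lower (median -2.42), of 26 MHC class I genes 16 (median -1.96), of 11 MHC class II genes 7 (median -2.23), and of 23 interferon gamma-induced effectors and chemokines 17 (median -1.82). Neither the ligands nor the receptors held a called gene. Among single genes, Ido1 had a contrast of -6.17 (SE 0.92, adjusted p = 0.000711), Nlrc5 of -4.79 (SE 0.58, adjusted p = 0.000116) and Myo18b of -5.82 (SE 0.47, adjusted p = 5.03e-06). Jak2, which was not called in the direct comparison, passed the adjusted p here below 2-fold (-0.69, SE 0.14, adjusted p = 0.00628), as 5.23% of all genes did in the lower direction. Lrmda did not pass (0.92, SE 0.49, adjusted p = 0.261), nor did Chil3 (-2.30, SE 0.76, adjusted p = 0.0720). For CD8 T and NK cells 7 of 11 tested markers were called lower, but 4 without Tyk2wt replicate 3, Tyk2KO replicate 1 or Tyk2KO replicate 2. For T cells in general none of 20 was called in this contrast. Without Tyk2wt replicate 3 the counts were 78 higher and 192 lower, and without Tyk2KO replicate 2 they were 89 and 188.

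The direct calls also varied with the libraries used. Of the 130 genes lower in Tyk2KO, 69 were called in all 7 fits that each left out 1 library, and 55 of these 69 belong to the interferon and antigen presentation lists. The number of lower genes was 74 without Tyk2KO replicate 2, and lay between 90 and 159 without any other single library. Of the genes that the study names, Tap1, Ifit1, Oas3, Cd274 and Ido1 are among the lower genes above, whereas not all of the others were called between the tumors. Among those not called were Ccl7, a monocyte chemokine (-0.71, SE 0.20, adjusted p = 0.0799), Pde11a, a phosphodiesterase (0.80, SE 0.38, adjusted p = 0.246), and Pkd1l1, a polycystin-like channel protein (-1.27, SE 0.45, adjusted p = 0.133). The study compared each genotype with its own controls, and there Ccl7 was lower and Pkd1l1 higher in both. Such genes need not differ between the genotypes. Pde11a was higher in Tyk2KO and lower in Tyk2DIEC in the study.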

How the data were processed

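RNA of AOM/DSS-induced colon tumors was sequenced in 17 libraries, grouped by the genotype in their labels. The authors selected poly(A) RNA, made directional libraries, aligned single-end reads with STAR 2.6.1a to GRCm38 (per the submitters' processing notes) and deposited raw read counts per gene, neither filtered nor normalized. Gene positions and classes come from GENCODE M21 on GRCm38, another release than the authors', which matched 55240 of 55421 identifiers.

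Counts of the 3 Tyk2KO and 4 Tyk2DIEC libraries were joined on gene identifier. The filterByExpr step of edgeR 4.0.16 (R 4.3.3) removed low genes at a minimum count of 10 and a minimum total of 15, TMM set the scale, and the quasi-likelihood F test compared the groups, with Benjamini-Hochberg adjustment over all genes tested. Each standard error is the absolute log2 fold change over the root of its F value. The controls and the contrast of 4 groups were tested in the same way. Depth of about the same size in both tumor groups limits single-library precision mainly for genes with few reads. The limit of 3 reads given for a count of 0 covers counting error only, whereas standard errors and p-values include the spread between libraries. Alternatives used DESeq2 1.42.0, limma voom (limma 3.58.1), other scalings and filters, a replicate block, thinned Tyk2fl counts and leaving out each library. On simulated counts of 16067 genes for this comparison, 89 of 97 genes changed 4-fold were called, 68 of 99 changed 2-fold passed the adjusted p, and 5 of 133 calls were of unchanged genes.

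Named were Tyk2, genes the study names, the 12 protein-coding genes with the largest called non-overlapping change in each direction at a mean of at least 1 CPM, up to 4 members per list by smallest adjusted p, and the ligand, receptor and kinase genes. Outside that rule Mid1, Mid1-ps1, Ighv1-26, Igkv4-68, Ngp, Siglec1, Ctsk, B2m, H2-K1, Isg15, Chga, Ciita and genes given only by a fold change were named after their values had been seen. The 42 lists and their members were chosen with earlier results of these data known. Some genes are not reported here, and 1 list was counted without such a member. The authors' lists of changed genes were not used. Plots were drawn with matplotlib 3.10.9 in Python 3.11.15.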

Additional observations from a re-analysis of the deposited data

Results flagged for a closer look

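In the Tyk2DIEC group of 4 libraries, 136 values (genes with printed levels and summed lists) were checked for a library whose distance from its nearest neighbour filled most of the group's range. The check picked out 7 of the 136 values, near the 1 in 20 that chance picks. Tyk2DIEC replicate 1 stood apart for Usp18 (53.9 CPM, the others at 30.5 to 34.4), Mt2 (65.5 CPM, the others at 104 to 108), the clock gene Per2 (50.5 CPM, the others at 33.8 to 35.8) and the summed smooth muscle markers (1670.1 CPM, the others at 261 to 313). Tyk2DIEC replicate 4 stood apart for Il10rb, a chain of the interleukin 10 and 22 receptors (54.3 CPM, the others at 44.7 to 45.9), Krt15 (33.8 CPM, the others at 57.6 to 60.2) and the summed immune checkpoints (333 CPM, the others at 320 to 321). Whether any of these values reflects more than chance, and what would set the libraries apart, was not tested.

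The change from the own controls differed between the genotypes by the contrast over all 17 libraries, being lower in Tyk2KO than in Tyk2DIEC tumors for 311 genes and higher for 140.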

How the results depend on the processing

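None of the called genes refitted and no count changed direction under the alternatives run. Of results that were not called, 7 genes and 15 list medians in the direct comparison, with values between -0.27 and 0.20, changed sign under at least 1 alternative, among them the receptor median (-0.03, and 0.01 without Tyk2DIEC replicate 1), so their signs carry no direction. The contrast median of the plasma cell markers moved from -0.70 to 0.0074 without Tyk2DIEC replicate 1, and the control median of the smooth muscle markers from 0.07 to -0.23 without the Tyk2fl libraries with Xist and to -0.22 without Tyk2wt replicate 3. The count of genes lower in Tyk2KO was 99 to 157 under other scalings, filters, tools, the fit of all libraries and without technical gene classes, 113 with the replicate number as a block, 501 without a fold minimum, 71 in a test against 1.5-fold, and 74 to 159 when 1 library was left out. The count of higher genes was 39 without a filter, 10 with a stricter one, 30 with DESeq2, 27 with the replicate block, 177 without a fold minimum, 3 in the test against 1.5-fold, 8 without immunoglobulin and other technical gene classes, and 3 to 47 when 1 library was left out. Between Tyk2wt and Tyk2fl, 88 higher and 66 lower genes were left without the Tyk2fl libraries with Xist, 13 and 4 with the replicate block, and 15 to 139 and 22 to 70 without 1 Tyk2wt library. The contrast beyond the controls gave 78 to 165 higher and 188 to 332 lower genes when 1 library was left out, and 122 and 312 with the block. Deviations of same-numbered Tyk2KO and Tyk2DIEC libraries correlated at 0.12, 0.17 and -0.02, beside -0.23 to 0.24 for the other pairs. So few values cannot decide whether the numbers pair the libraries. The gap between the groups on the first component was 34.98% of its range, 45.7% with 1000 genes, 66.9% with a prior count of 5 and 30.8% without technical gene classes. Where a count moved, the cause was not tested beyond what the alternative itself changed. With 3 libraries against 4, genes with few reads such as Ifng, Cd8a and Nkg7 could not be compared firmly.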
